A study of Mus musculus with 5 samples.

Results

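The hair keratins and the keratin-associated proteins build the hair shaft and the sheath that moulds it. Members were taken by gene symbol alone, as probe sets that the array annotation pairs with 1 gene whose symbol begins with Krtap or is one of 18 listed keratins. This gave 41 of the 12393 genes named on the array, of which 15 were keratins and 26 were keratin-associated proteins. No probe set was found for 3 of the listed keratins, Krt28, Krt73 and Krt85. Each gene was read from its brightest probe set by the mean of the 5 arrays, and 5 genes had a second one.

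The study mixed 2 RNAs to make samples of known composition for comparing array platforms. One was total RNA pooled from whole C57BL/6 mice aged 1 day, and the other was total RNA pooled from the colons of C57BL/6 mice aged 8 weeks, so tissue and age differed together. Colon made up 0%, 25%, 50%, 75% or 100% of the mix, and 10 ng of each mix was amplified in 2 rounds with T7 polymerase and read on 1 Affymetrix MOE430 array. No mix had a replicate array, all arrays came from the same 2 pools, and p-values therefore measure technical spread and bends in the curves rather than spread between mice. Values are the authors' log2 signals after robust multi-array averaging (RMA), and in what follows 5 values in a row run from 0% to 100% colon.

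A hair is built from the inside of the follicle outward in concentric layers of keratinocytes. Cells of the shaft first assemble intermediate filaments, each from 1 type I and 1 type II hair keratin, and then embed them in a matrix of keratin-associated proteins. These small proteins fall into high glycine-tyrosine, high-sulfur and ultra-high-sulfur classes by their amino acid makeup, and the cysteines of the latter cross-link the filaments. The inner root sheath around the young shaft has keratins of its own and breaks down before the hair leaves the skin. Newborn mice have a coat in the making, whereas the lining of the colon is a simple epithelium without hair.

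The hair keratins and their partners lie in gene clusters, and some share short stretches in front of their start sites. The motifs were chosen after the values were seen. A 250-base window upstream of the start was found in RefSeq's GRCm38.p6 promoters for 35 of the 41 genes, and none was used for Krt33a, Krt35, Krt81, Krt83, Krt86 and Krtap12-1. The motif CTTTGAA, the core bound by LEF/TCF factors, which act downstream of Wnt signals in the follicle, was searched on both strands. It was present in 9 of the 35 members' windows and in 4.46% of all 32851 promoter windows. None of the 4 inner root sheath keratins, the 2 type II hair keratins and the 6 ultra-high-sulfur genes with a window held it. All 4 type I hair keratins with a window did, at 240 to 247 bases before the start. That is near the window's far edge, and Krt34 held a second copy at 133. The first 60 bases of those 4 windows follow, 5′ to 3′ on the gene's own strand, with the motif in capitals, because the shared position can be seen in them. All lie on the minus strand, Krt31 at chr11:100050742-100050801, Krt32 at chr11:100088460-100088519, Krt33b at chr11:100030059-100030118 and Krt34 at chr11:100041745-100041804.
Krt31: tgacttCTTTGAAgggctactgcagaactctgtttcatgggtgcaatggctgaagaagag
Krt32: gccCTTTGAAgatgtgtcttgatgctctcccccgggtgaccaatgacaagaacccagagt
Krt33b: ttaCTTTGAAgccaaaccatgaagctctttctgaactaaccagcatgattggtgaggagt
Krt34: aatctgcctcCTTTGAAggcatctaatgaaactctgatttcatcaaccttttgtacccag

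The other members with this CTTTGAA motif were Krtap1-5, Krtap14, Krtap15, Krtap16-3 and Krtap19-3. It began 246 bases before the start in Krtap16-3, 241 in Krtap19-3 and 236 in Krtap1-5. Their other copies lay closer to the start. The far position was therefore not particular to the type I hair keratins. Shifted for the best ungapped match, each pair of the 4 keratin windows had 40.4% to 50.9% identical bases, the motif included. The TATA motif TATAAA, which positions the transcription machinery, does not overlap with CTTTGAA and was searched on both strands too. It was present in 27 of the 35 members' windows and in 12.4% of all windows. The last 70 bases before the start are shown for the 4 members with the largest falls among those with a window, TATAAA in capitals. They lie on the minus strand, Krt25 at chr11:99322952-99323021, Krtap6-5 at chr16:89047900-89047969, Krtap8-1 at chr16:89487953-89488022 and Krtap6-2 at chr16:89420112-89420181.
Krt25: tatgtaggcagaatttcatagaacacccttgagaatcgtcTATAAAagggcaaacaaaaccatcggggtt
Krtap6-5: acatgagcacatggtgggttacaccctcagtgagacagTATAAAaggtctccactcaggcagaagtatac
Krtap8-1: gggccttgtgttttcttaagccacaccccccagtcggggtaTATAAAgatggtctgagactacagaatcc
Krtap6-2: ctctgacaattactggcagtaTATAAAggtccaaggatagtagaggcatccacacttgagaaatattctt

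In Krt25, Krtap6-5 and Krtap8-1 the TATAAA began 29 to 32 bases before the start, and in Krtap6-2 it began 49 bases before it. A match of letters is a description of the sequence and was not tied to any change in signal. Among the 12 members that fell and had a window, 11 held TATAAA and 4 held CTTTGAA. Over all 35 members with a window these counts were 27 (77.1%) and 9 (25.7%), so members that did not pass held both motifs too.

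Most hair genes had their highest signal in whole newborn mouse, and for 15 of them the decline along the dilution passed the test. A gene is said here to have fallen when its log2 signal went down with rising colon share in limma's regression at a Benjamini-Hochberg adjusted p under 0.05, and to have risen when it went up. Of the 41 genes, 15 fell, which is 36.6%, against 14.5% of all genes. None of the 41 rose, against 9.8% of all genes, and at an unadjusted limma p under 0.05 there were 21 downward and 1 upward. The median fitted difference between colon and whole mouse was −0.58 log2 over the 41 genes and −0.01 over all genes. On the undiluted arrays 14 of the 41 were at least 2-fold lower in colon, against 10.4% of all genes, and none was at least 2-fold higher. Since the RNA came from whole tissue, fewer cells of a type and less RNA per cell cannot be told apart.

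The array medians lay between 6.83 and 6.92 log2. Centring the arrays on them turned the split of calls over all genes from 1797 down and 1215 up into 1702 down and 1934 up, and that of the members into 16 down and 1 up. Without the whole mouse array, the 75% mix or the colon array the number of members that fell was 8 each time, and it was 15 without the 25% mix and 12 without the 50% mix. These fits had fewer residual degrees of freedom. Without the 25% mix, Krt25 and Krt31 lost the call while Krtap13 and Krtap16-3 gained it. The 25% array stood apart in its bacterial hybridisation controls, whose median was 0.65 log2 above the mean of the other arrays. Colon markers were high in colon, with Cdx1, a transcription factor of intestinal identity, at 5.53 in whole mouse and 9.49 in colon, and the epidermal keratin Krt14 ran from 11.51 to 5.28.

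**Figure D1:**
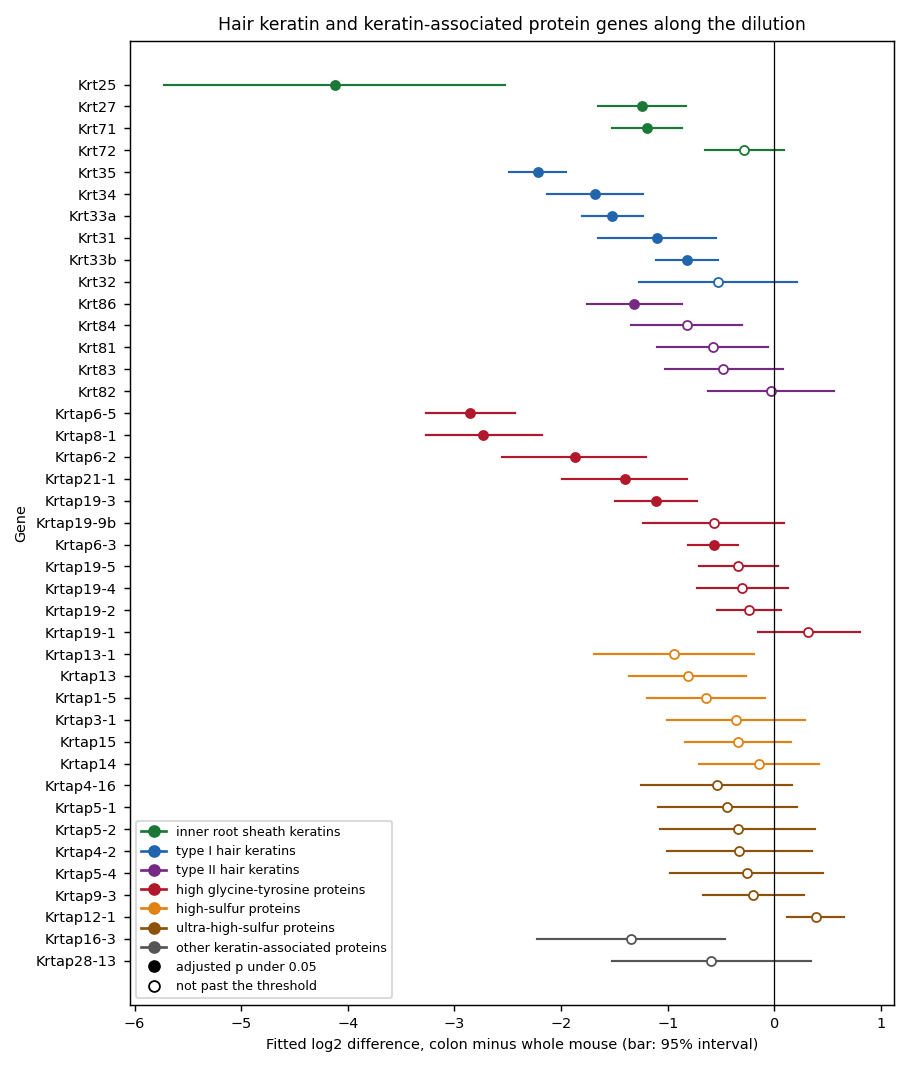
Fitted log2 difference between colon and whole mouse for each of the 41 genes, grouped by protein class, with points at the estimate, bars for the 95% interval of the limma fit over the 5 arrays, and filled points for genes past the adjusted p of 0.05. Krt25 lies farthest to the left at −4.12, and all genes of the high-sulfur and ultra-high-sulfur classes have open points.

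Of the 4 inner root sheath keratins, 3 fell (75.0%, against 14.5% of all genes). Krt25, a type I keratin of all layers of the inner root sheath, had the largest difference of the 41 genes, with signals of 8.88, 8.47, 7.88, 6.69 and 4.61. Its last step, from 75% to 100% colon, was the largest, and the undiluted arrays were 19.2-fold apart. The fit gave −4.12 log2 (SE 0.62, 95% interval −5.72 to −2.53, adjusted p = 0.0166). That call was lost without the 25% mix, the 75% mix or the colon array, with adjusted p-values from 0.0426 to 0.0574 over the fits that left out 1 array.

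The other keratins of this layer had smaller differences. Krt27, a type I keratin of the same sheath, had 8.21, 7.85, 7.50, 7.05 and 7.05 (−1.24 log2, SE 0.16, adjusted p = 0.0117). Its signal was the same at 75% and 100% colon to 2 decimals. Krt71, a type II keratin that pairs with them and whose mutation gives mice a wavy coat, had 7.85, 7.55, 7.09, 6.97 and 6.65 (−1.19 log2, SE 0.12, adjusted p = 0.00778). It went down at every step. The call of Krt27 was lost without the whole mouse array (adjusted p = 0.0729), and that of Krt71 without the whole mouse array (0.0502) or the colon array (0.0568). Krt72, another type II keratin of the sheath, had 6.36, 6.02, 6.10, 6.06 and 6.00, and its slope of −0.28 log2 did not pass (adjusted p = 0.258). Only its whole mouse value stood above the rest, which spanned 0.11 log2.

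Of the 6 type I hair keratins, the acidic partners in the shaft's filaments, 5 fell (83.3%, against 14.5% of all genes). Krt35, made early in the hair matrix and cuticle, had 8.39, 7.74, 7.17, 6.70 and 6.14 and was 4.77-fold higher in whole mouse than in colon. The 5 values lay close to a straight line, and the fit gave −2.22 log2 (SE 0.10, 95% interval −2.49 to −1.95, adjusted p = 0.00357), the smallest adjusted p among the 41 genes. Krt34, a keratin of the cortex, had 7.59, 6.98, 6.61, 6.05 and 5.95 (−1.68 log2, SE 0.17, adjusted p = 0.00772). Most of its difference was reached by the 75% mix. Krt33a, of the cortex as well, had 6.13, 5.84, 5.32, 5.06 and 4.62 (−1.52 log2, SE 0.11, adjusted p = 0.00428).

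Krt31, also of the cortex, had 6.77, 6.25, 5.85, 5.69 and 5.68. It fell by 1.10 log2 (SE 0.21, adjusted p = 0.0289), and its last 2 values differed by less than the fit's SE. Of the 15 it was the only 1 that lost its call whichever array was left out, where its adjusted p ran from 0.0549 to 0.119. Krt33b, a near copy of Krt33a, had 7.46, 7.28, 6.96, 6.92 and 6.61 and fell by 0.82 log2 (SE 0.11, adjusted p = 0.0139). That call was lost without the whole mouse array (0.0676) or the colon array (0.0946). Krt32, a keratin of the hair cuticle, had 7.95, 7.29, 7.14, 7.29 and 7.29 and did not pass (−0.53 log2, adjusted p = 0.279). Its whole mouse value was 0.66 log2 above the 25% mix, while the other 4 arrays spanned 0.15 log2.

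Of the 5 type II hair keratins, the basic partners, only 1 fell in the fit to all arrays, near the 14.5% of all genes. The gene was Krt86. This keratin of the cortex, whose human counterpart is mutated in the brittle-hair disorder monilethrix, had 6.99, 6.39, 6.03, 5.86 and 5.61. It went down at every step, with a slope of −1.32 log2 (SE 0.17, adjusted p = 0.0122). The call was lost without the 75% mix (0.058) or the colon array (0.0606). Krt84, a keratin also found in the tongue's filiform papillae, had 7.17, 6.84, 6.40, 6.61 and 6.27 and lay just outside the threshold (−0.82 log2, SE 0.20, adjusted p = 0.0506). The 50% and 75% arrays were out of order in it. It passed with the trended and robust moderation (adjusted p = 0.0393) and on linear intensity (0.0377), and over the fits that left out 1 array its adjusted p ran from 0.0504 to 0.245.

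The other type II genes were high on the whole mouse array alone or flat. Krt81 had 7.90, 7.39, 7.30, 7.41 and 7.17 (adjusted p = 0.111), and Krt83 had 8.00, 7.49, 7.40, 7.41 and 7.44 (adjusted p = 0.2). In both, the drop to the 25% mix of 0.51 log2 was larger than the range of the other 4 arrays. Krt82, a cuticle keratin whose probe set is marked as able to bind several transcripts, had 4.57, 4.47, 4.22, 4.27 and 4.64 (slope −0.03, adjusted p = 0.957). Whether type I and type II hair keratins differ in how often they fell was not tested, and several of these genes are near copies whose probes may share targets.

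**Figure D2:**
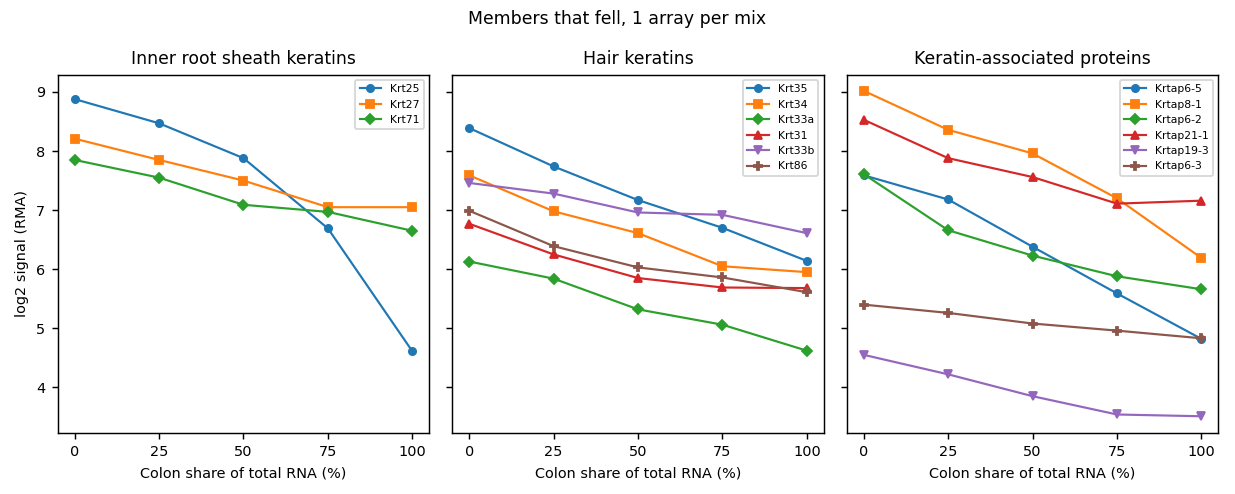
RMA log2 signal against the colon share of total RNA, in percent, for the 15 genes that fell, with 1 array per point and lines joining the arrays of a gene. Krt25 bends down most between 75% and 100% colon, from 6.69 to 4.61, whereas Krt35 runs nearly straight from 8.39 to 6.14.

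The high glycine-tyrosine proteins are small, and several of them appear early in the forming shaft. Of 11 such genes, 6 fell (54.5%, against 14.5% of all genes), and all of the 5 from the Krtap6, Krtap8 and Krtap21 families were among them. Krtap6-5 had 7.59, 7.18, 6.38, 5.59 and 4.82, an even descent that left whole mouse 6.81-fold above colon (−2.85 log2, SE 0.16, 95% interval −3.27 to −2.43, adjusted p = 0.00381). Krtap8-1 had 9.02, 8.36, 7.96, 7.20 and 6.19 and was 7.12-fold higher in whole mouse (−2.73 log2, SE 0.21, adjusted p = 0.00476). Both passed in every fit that left out 1 array, as did Krt33a, Krt34 and Krt35. Krtap6-2 had 7.61, 6.66, 6.23, 5.88 and 5.66 (−1.87 log2, SE 0.26, adjusted p = 0.0143). Its first step, 0.95 log2, was its largest, and its call was lost without the 75% mix (0.0651) or the colon array (0.0545).

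Krtap21-1 had 8.53, 7.88, 7.56, 7.11 and 7.16 (−1.40 log2, SE 0.23, adjusted p = 0.0199). Krtap6-3 had 5.40, 5.26, 5.08, 4.96 and 4.83, and its fall of 0.57 log2 (SE 0.09, adjusted p = 0.0193) was the smallest that passed. Its second probe set, at 4.42, 4.0, 3.95, 4.03 and 4.03, had a slope of −0.30 and did not pass (adjusted p = 0.35). Krtap6-3 kept its call only without the 25% mix, with adjusted p-values from 0.0465 to 0.0932 over the fits that left out 1 array. Krtap21-1 lost its call without the whole mouse array, the 50% mix or the 75% mix (0.06 to 0.0909). The probe sets of Krtap6-3 thus gave a straight descent in one case and a single step in the other.

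The 6 members of the Krtap19 family lie next to each other on chromosome 16. Only Krtap19-3 of them fell (16.7%, near the 14.5% of all genes). It had 4.55, 4.22, 3.85, 3.54 and 3.51 (−1.11 log2, SE 0.15, adjusted p = 0.0128), and lost its call without the whole mouse array (0.074) or the 75% mix (0.0507). Krtap19-9b had 6.40 in whole mouse and between 5.69 and 5.72 on the other arrays (adjusted p = 0.195), and Krtap19-4 had 6.08 and then 5.69 to 5.70 (adjusted p = 0.293). Krtap19-5 (slope −0.34) and Krtap19-2 (−0.24) did not pass either. Krtap19-1 was the reverse, with 6.50, 6.50, 6.50, 6.47 and 6.92 (0.32 log2, adjusted p = 0.303), and its second probe set had a slope of 0.45 (adjusted p = 0.0788). The Krtap19 genes resemble each other in sequence, so their probes may share targets.

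None of the 13 high-sulfur and ultra-high-sulfur members passed the limma test in either direction, while 14.5% of all genes fell and 9.8% rose. Of the 13 such genes, 12 had a negative slope, 3 were downward and 1 upward at an unadjusted p under 0.05, and the lowest adjusted p was 0.057. With an intensity trend and robust moderation in limma, Krtap13 of this group passed, as it did without the 25% mix. A probe set shared by the high-sulfur genes Krtap3-2 and Krtap3-3 was not a member and fell by 2.48 log2 (limma adjusted p = 0.00904). The high-sulfur Krtap13-1 had 7.33, 6.71, 6.38, 6.20 and 6.41 (−0.94 log2, SE 0.29, adjusted p = 0.0856), and Krtap13 had 6.34, 5.68, 5.68, 5.52 and 5.40 (−0.81 log2, SE 0.21, adjusted p = 0.057). These were the largest differences of the class, and in both the first step was the largest. Krtap1-5 (−0.64), Krtap3-1 (−0.36), Krtap15 (−0.34) and Krtap14 (−0.14) completed it, the last 2 also being known from the pubertal mammary gland.

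Of the 7 ultra-high-sulfur genes, the most cysteine-rich class, Krtap4-16 had the lowest slope, −0.54, with 6.90, 6.28, 6.28, 6.06 and 6.34 (adjusted p = 0.255). Krtap5-1 had 8.48, 7.92, 7.78, 7.92 and 7.92 in a probe set marked as able to bind other transcripts (slope −0.44, adjusted p = 0.299). Its second, dimmer probe set, without such a mark, had 7.70, 7.06, 6.85, 7.04 and 6.98 (slope −0.58, adjusted p = 0.228). That slope was lower than the one of Krtap4-16. Krtap5-2 (−0.34), Krtap4-2 (−0.33), Krtap5-4 (−0.26) and Krtap9-3 (−0.20) were nearer to 0. Krtap12-1 went the other way, with 7.94, 8.05, 8.05, 8.19 and 8.35 (0.39 log2, SE 0.10, adjusted p = 0.0601), and it was the only member to pass upward once arrays were centred. Its second probe set, marked as able to bind several transcripts, had a slope of −0.13, so its probe sets disagreed in direction. Whether the sulfur-rich classes differ from the high glycine-tyrosine class was not tested.

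The remaining 2 genes were not placed in a class. Krtap16-3 had 5.82, 4.74, 4.60, 4.60 and 4.21 (−1.34 log2, SE 0.34, adjusted p = 0.0549). With centred arrays (limma adjusted p = 0.048), with trended and robust moderation (0.0349) and without the 25% mix, Krtap16-3 passed. Its second, dimmer probe set is marked as able to bind several transcripts. That probe set had 4.84, 4.39, 4.21, 4.12 and 3.33 and a nearly equal slope of −1.32 that passed (adjusted p = 0.0211). Krtap28-13 had 6.38, 5.64, 5.34, 5.64 and 5.64 (−0.59 log2, adjusted p = 0.333).

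The members followed the mixing in more than one way. The whole mouse array was the highest of the 5 in 37 of the 41 genes, against 41.6% of all genes. Signals went down at every step in 13 genes, against 12.1% of all genes. All 13 were among the 15 that fell, an overlap favoured by the rule because such a descent suits a straight line. A different course was noticed after the values were seen, in which the drop from whole mouse to the 25% mix exceeded the range of the other 4 arrays. It was met by 20 members and by 19% of all genes. All 20 were among the 26 that did not pass, which the rule also favours, because a straight line fits a single step badly. How many of all genes with either course fell was not counted. The 20 were 11 of the 13 sulfur-rich genes, Krtap16-3, Krtap28-13, Krtap19-4, Krtap19-5, Krtap19-9b, Krt32, Krt72, Krt81 and Krt83.

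In these 20 the median signal relative to whole mouse was −0.54, −0.61, −0.56 and −0.54 log2 at 25%, 50%, 75% and 100% colon, a shape that the way they were chosen favours. In the 15 that fell it was −0.41, −0.96, −1.16 and −1.38. Without the whole mouse array the slopes of 11 members turned positive, and none of those 11 had passed. All but Krt82 were among the 20, whose choice favours such a turn because their other 4 arrays are nearly level. The share of all genes whose slope turned was not computed. The whole mouse array also had the lowest bacterial hybridisation controls, with a median 0.30 log2 below the mean of the others. The colon array was close to it, at 0.25 log2 below, while the 25% mix, the other end of the first step, was 0.65 log2 above. The part of the arrays' own differences in the course of the 20 was not tested.

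**Figure D3:**
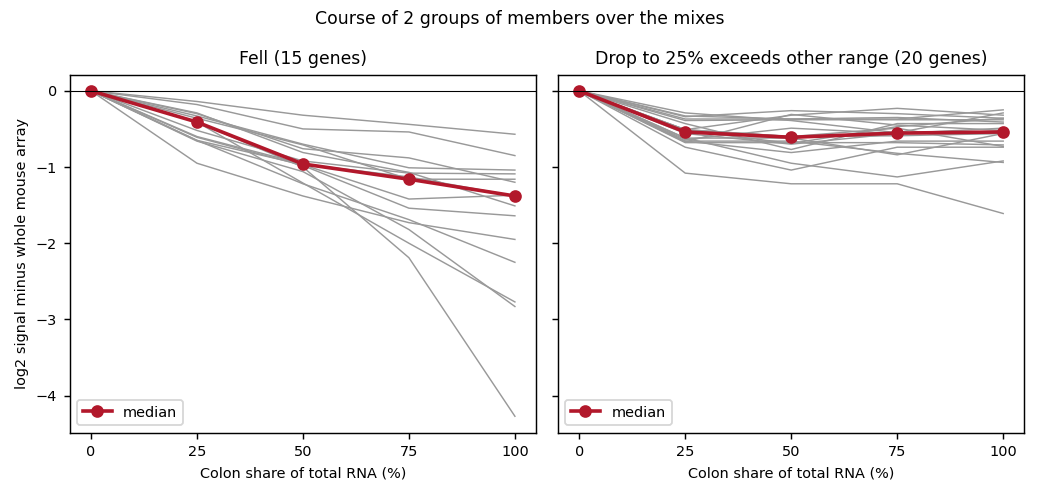
Log2 signal of each gene minus its signal on the whole mouse array, against the colon share in percent, in grey for single genes and in red for the median. The 15 genes that fell reach a median of −1.38 in colon, while the 20 genes chosen for their first step stay between −0.54 and −0.61 on all 4 other arrays.

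A known mix allows each signal to be set against the weighted mean of the undiluted intensities. Among the 14 members at least 2-fold lower in colon, the mixes lay below that mean in all 14 genes at each of the 3 steps. The median deviation was −0.32, −0.39 and −0.37 log2 at 25%, 50% and 75% colon. Over the 1284 genes at least 2-fold lower in colon it was −0.15, −0.22 and −0.14, and 921, 1078 and 945 of them lay below the mean. Of the 24 members less than 2-fold lower in colon, 23, 23 and 20 lay below it too, and so did 3875, 4180 and 3476 of 4980 such genes. A whole mouse value that reads high both admits a gene to these sets and pushes its mixes below the mean. The choice of genes therefore favours this result. Deviations were not summarised for genes higher in colon. Krt25 was close to the weighted mean at 25% and 50% colon, with deviations of −0.02 and −0.07, and lay below it by 0.40 log2 at 75%. Krtap6-2 was farther off, with −0.66, −0.71 and −0.56. Of the excess of whole mouse over colon on the linear scale, Krt25 kept 74.0%, 47.5% and 17.7% in the mixes where whole mouse RNA made up 75%, 50% and 25%, and Krtap6-2 kept 34.8%, 16.9% and 5.74%. The table holds no calls of presence, so the level that remains in colon, such as 7.44 in Krt83, cannot be told apart from non-specific binding to that probe set.

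Other genes of the hair follicle were counted from lists that were chosen with earlier results of these data known. Of 15 measured genes for other proteins of the follicle, mostly of the shaft and sheath, 8 fell and 1 rose, with a median slope of −1.0 log2. The share that fell was 53.3%, against 14.5% of all genes. Krt79, a keratin of the follicle's upper canal rather than of shaft or inner root sheath, fell by 4.09 log2 (SE 0.57, adjusted p = 0.014). Gsdma, a gasdermin of skin and follicle, fell by 2.41 and S100a3, a calcium-binding protein of the hair cuticle, by 2.22. Tgm3, a transglutaminase that cross-links hair and epidermal proteins, rose by 1.35 log2 (SE 0.19, adjusted p = 0.0143). Selenbp1, a selenium-binding protein also made by gut epithelium, went from 11.57 to 13.74 between the undiluted arrays without passing (adjusted p = 0.107).

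Of 31 transcription factors and signals of the follicle, 4 fell and 1 rose, with a median slope of −0.15. The share that fell, 12.9%, was near the 14.5% of all genes. Sostdc1, an inhibitor of Bmp and Wnt signals, had 8.04, 7.71, 7.03, 6.35 and 5.23 (−2.80 log2, SE 0.26, adjusted p = 0.0065), and Lhx2, a factor of follicle stem cells, fell by 2.25. Prdm1 fell by 0.82 and Msx2, a factor of the hair matrix, by 0.66. Bmp4, which is also made in gut mesenchyme, rose by 0.77 (adjusted p = 0.0264). Vdr, the vitamin D receptor, had 7.19 and 10.54 on the undiluted arrays (adjusted p = 0.0525). Foxn1 and Hoxc13, factors that switch on hair keratin genes, stayed within 4.98 to 5.23 and 5.67 to 5.86 (adjusted p = 0.351 and 0.842), and these and Msx2 are named here after their values were seen.

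Neighbouring tissues were set beside the members. Of 14 genes of pigment cells, which colour the shaft, 2 fell and 1 rose, with a median of 0.02, and the 14.3% that fell was near the share of all genes. Dct, a melanin-forming enzyme, fell by 2.39 log2 (SE 0.11, adjusted p = 0.00357) and Pmel, the scaffold of melanosomes, fell by 2.13, while Kit, a receptor also of gut pacemaker cells, rose by 1.21. Gpnmb, a glycoprotein of melanosomes, had 7.44 and 7.27 on the undiluted arrays (adjusted p = 0.467). Of 15 genes of the epidermis between follicles, 7 fell (46.7%, against 14.5% of all genes) and none rose, with a median of −5.38. At an unadjusted limma p under 0.05 there were 14 downward and none upward. All 9 other keratins of stratified epithelia fell, with a median of −3.21 and Krt6a at −4.72, Krt13 at −4.44 and Krt4 at −4.01. The epidermal genes with the largest slopes among those that passed were Krt14 (−5.67), Lgals7 (−5.60) and Krt5 (−4.95), and Krt10 had 13.63 and 7.35 (adjusted p = 0.116).

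Of 12 genes of simple and colon epithelium, 4 rose, against 9.8% of all genes, and Krt23 fell by 1.93 log2. On the undiluted arrays 11 of the 12 were at least 2-fold higher in colon, and at an unadjusted limma p under 0.05 there were 10 upward and 1 downward. Those that rose were Cdx1 (3.58), Cdx2 (3.13), Krt18 (1.33) and Krt7 (1.12), and Lgals4 had 11.40 and 13.92 (adjusted p = 0.129). The medians of these groups came from different probe sets and were not tested against that of the hair genes. The part of the epidermis as a whole in the hair genes' differences was not tested.

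**Figure D4:**
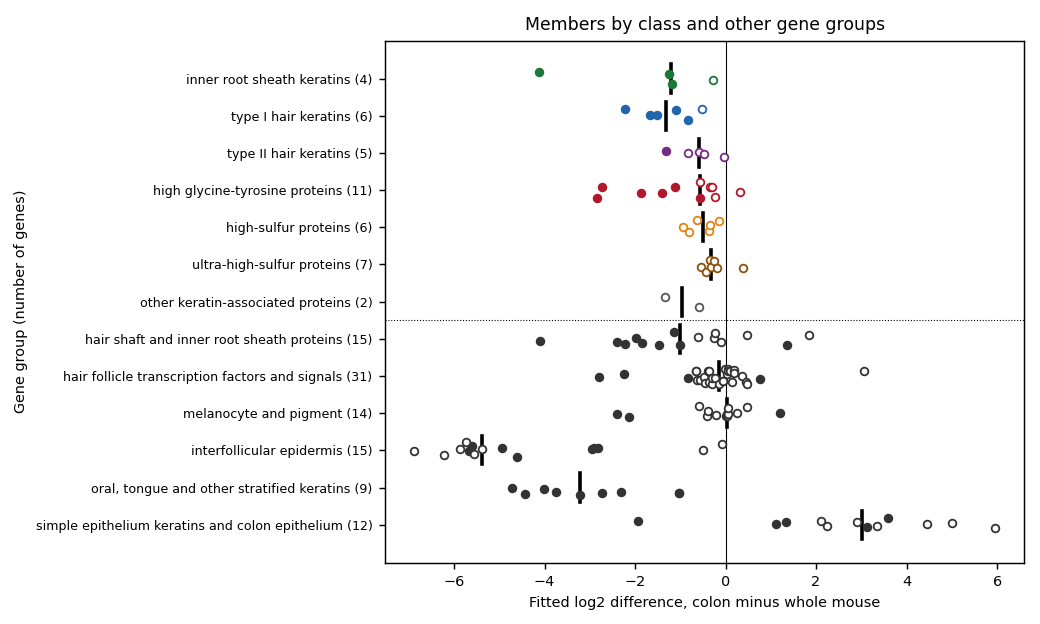
Fitted log2 difference between colon and whole mouse for single genes (points, filled where the adjusted p is under 0.05) and the median of each group (bar), with the members' classes above the dotted line and the other groups below it. The members' medians run from −1.31 for type I hair keratins to −0.33 for the ultra-high-sulfur class, those of epidermis lie at −5.38 and of colon epithelium at 3.01.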

How the data were processed

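The authors deposited log2 signals for 22690 probe sets on 5 arrays, made with RMA per the submitters' processing notes (version not given in the sources used here). RMA's background correction, quantile normalization and median polish can compress low signals, and 34.1% of the members' probe sets had exactly equal deposited values on at least 1 pair of arrays (40.5% of all tested). After 64 control probe sets were set aside, 22626 were tested with no filter on signal. Symbols came from the platform annotation, updated by gene identifier through RefSeq's GRCm38.p6 table, which matched 20351 of 20380 probe sets with 1 gene and all 46 of the members. A straight line of log2 signal against colon share (0 to 1) was fitted with limma 3.58.1 in R 4.3.3 (lmFit, eBayes, 3 residual degrees of freedom), 2-sided, adjusted over all tested probe sets. The fit was tested on simulated data. The number of arrays limits the precision. The members and lists were chosen with earlier results of these data known. All members are named. From each list the 3 largest changes that passed, any that passed the other way and the brightest that did not pass are named. Alternatives were array centring, the variance model, a signal filter, linear intensity, each array left out and the choice of probe sets.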

Additional observations from a re-analysis of the deposited data

How the results depend on the processing

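Under centring, trended and robust moderation, linear intensity, the dimmest probe set of each gene, or without probe sets shared by design, between 15 and 18 members fell, and the first 3 kept all 15 that had fallen. A filter keeping probe sets whose highest array reached 6.88, the median of all values, left 21 members, of which 12 fell, with a median slope of −0.94. Of the 12, 11 had fallen before and Krt84 was gained. Krt31, Krt33a, Krtap6-3 and Krtap19-3, which had fallen, were too dim for the filter. Of these, Krtap6-3 and Krtap19-3 lay below the lower quartile of every array. Some members pass the filter only on the whole mouse array, where they are high, so its steeper median is no support. One member, Krtap12-1, rose with centring and with that filter, 1 gene each time. Leaving out 1 array gave 8 to 15 members that fell, 0 that rose, median slopes of −0.85 to −0.36, 997 to 2998 probe sets called (4409 with all arrays) and 7 to 10 genes of the first 2 follicle lists called (14 with all arrays). Of 349 single-gene results under an alternative, 26 lost the call and 10 gained it. Signs turned in 14, none of them called. Krt82 had 0.06 with centring and −0.47 to 0.22 over the fits that left out an array. Over those fits Krtap14 ran from −0.30 to 0.26, Krtap5-2 from −0.65 to 0.13, Krt32 from −0.85 to 0.06, Krtap4-2 from −0.53 to 0.12, Krtap28-13 from −1.01 to 0.12, Krtap5-4 from −0.62 to 0.28, Krtap19-4 from −0.45 to 0.02, Krtap3-1 from −0.61 to 0.15, Krtap9-3 from −0.45 to 0.15, Krtap5-1 from −0.72 to 0.06 and Krtap19-1 from −0.04 to 0.49. Fits that left out an array had fewer degrees of freedom, and the cause of the other moves was not tested. The median slope on linear intensity is in another unit and is not given. No paired analysis was possible because each mix had 1 array.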

Other observations

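Probe sets that the annotation pairs with several genes were not members. One shared by Krtap3-2 and Krtap3-3, both high-sulfur genes, had 6.68, 6.12, 5.03, 4.56 and 4.35 and fell by 2.48 log2 (SE 0.28, limma adjusted p = 0.00904). That is a larger fall than any of the 13 sulfur-rich members had. One shared by Krtap6-1 and 2 other genes had 7.07, 6.52, 6.61, 6.35 and 5.91 and fell by 0.99 log2 (adjusted p = 0.0279). One shared by Krtap4-13 and 2 others had 6.77, 5.96, 6.17, 6.20 and 6.17 (adjusted p = 0.469), and one shared by Krtap9-1 and 3 others had 7.21, 6.81, 6.75, 6.79 and 6.79 (adjusted p = 0.249).

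Krt88, a keratin not among the members, had 7.26, 7.05, 7.26, 7.34 and 7.26 (slope 0.12, adjusted p = 0.648).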
